A study of Homo sapiens and Homo sapiens
Mus musculus with 19 samples.

Results

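The 53 genes described here lie on the short arm of chromosome 12 (12p) and are part of the 57820 genes of the human count table. They were matched by gene symbol. The list was chosen on these samples, as genes of a region whose RNA was higher in Control than in sgTWIST1 as a whole, so the comparison of Control with sgTWIST1 is given for them as a description, without a test. Of the 53 genes, 48 passed the filter on low values described below, out of 10889 protein-coding genes that passed it in all. The arm holds 285 protein-coding genes of the table, of which 130 passed, the 48 genes of the list and 82 others.

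RNA-seq had been carried out on SK-N-Be2c, an established human neuroblastoma (NB) cell line with amplified MYCN. The 4 groups were 3 Control clones labelled wild type for TWIST1, 3 sgTWIST1 clones in which TWIST1 had been edited by CRISPR/Cas9, 4 Control ortho_1 tumors and 4 sgTWIST1 ortho_1 tumors. Tumors were xenografts of these cells in the left adrenal gland of athymic Swiss nude mice, hosts that lack T cells but keep other immune cells, and had grown to 1000 mm3. The paper reports that sgTWIST1 tumors took longer to reach the set volume. In tumors, genotype and time of growth therefore cannot be told apart. The labels do not say from which clone a tumor came. The protocol among the labels gives 500000 injected cells, and the design text of the series gives a different number. Each sample held 21426499 to 49990985 human counts, and murine counts were 2.44% to 14% of the counts of a tumor.

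TWIST1 is a basic helix-loop-helix transcription factor that binds E-boxes, short DNA motifs with the letters CANNTG. The genes of a chromosome arm share a place in the genome and not a function. The genes of 12p listed here include chromatin regulators, DNA repair genes, brakes and drivers of the cell cycle, enzymes and genes of membrane traffic. DNA was not analysed here, so the number of copies of the arm in each clone cannot be told from these values.

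The edited gene was measured first. TWIST1 was at 68, 73.5 and 62 CPM in the Control clones and at 33.8, 33.2 and 22.8 CPM in the sgTWIST1 clones. CPM are counts scaled to a library of 1e+06 counts over the genes tested, after TMM normalisation. In tumors it was at 89.6, 104, 85 and 89.3 CPM in Control and at 48.6, 45.5, 24.9 and 35.1 CPM in sgTWIST1. TWIST1 RNA was thus lower in every sgTWIST1 sample but was still present, with a log2(FC) of 1.18 (SE 0.17) in cells and 1.27 (SE 0.19) in tumors (Benjamini-Hochberg adjusted p = 0.00223 and 0.000415, edgeR quasi-likelihood test). Counts per gene show neither the edit itself nor the protein. The paper reports that wild-type TWIST1 protein was completely lost in the sgTWIST1 cells. Of 11 markers of adrenergic NB cells, 10 had a mean above 1 CPM in the sgTWIST1 clones and 11 in each other group. Several of these markers had lower means in sgTWIST1 clones than in Control clones, with GATA2 at 183 compared with 825 CPM, CHGB at 126 compared with 886, DBH at 45.8 compared with 232 and HAND2 at 199 compared with 415. MYCN, at 3161 compared with 2675, did not. Summed markers of fibroblasts were at 153 to 273 CPM in Control clones, 317 to 517 in sgTWIST1 clones, 208 to 257 in Control tumors and 92.2 to 232 in sgTWIST1 tumors. Among them DCN and LUM had higher means in sgTWIST1 clones, at 201 and 212 CPM compared with 20.5 and 52.7 in Control, and PDGFRB had a lower one, at 16.2 compared with 144. The part of those cell type markers in the values below was not tested.

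The stretch before the start of 3 of the genes is shown because these genes differ in direction and in their E-boxes. FBXL14 and RAD52 were among the genes higher in Control, and ETV6 was the gene lower in Control in both cells and tumors. The sequences are the 250 bases before a gene start as RefSeq gives them, written 5′ to 3′ on the strand of the gene, with E-boxes in capitals. They matched GRCh37 at chr12:1703748-1703997 (FBXL14, minus strand), chr12:1058861-1059110 (RAD52, minus strand) and chr12:11802358-11802607 (ETV6, plus strand). No annotated exon overlaps these windows. The first lies in an intron of WNT5B on the other strand, the second in an intron of RAD52 and the third between genes.
FBXL14: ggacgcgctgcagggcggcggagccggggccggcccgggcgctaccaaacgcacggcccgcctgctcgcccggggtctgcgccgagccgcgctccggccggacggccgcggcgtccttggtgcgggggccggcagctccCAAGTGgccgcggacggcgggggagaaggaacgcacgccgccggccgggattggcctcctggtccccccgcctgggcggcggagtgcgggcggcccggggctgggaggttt
RAD52: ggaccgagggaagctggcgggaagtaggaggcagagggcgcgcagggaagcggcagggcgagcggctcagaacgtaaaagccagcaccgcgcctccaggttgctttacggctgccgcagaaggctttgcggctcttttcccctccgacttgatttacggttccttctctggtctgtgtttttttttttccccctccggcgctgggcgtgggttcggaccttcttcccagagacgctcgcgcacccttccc
ETV6: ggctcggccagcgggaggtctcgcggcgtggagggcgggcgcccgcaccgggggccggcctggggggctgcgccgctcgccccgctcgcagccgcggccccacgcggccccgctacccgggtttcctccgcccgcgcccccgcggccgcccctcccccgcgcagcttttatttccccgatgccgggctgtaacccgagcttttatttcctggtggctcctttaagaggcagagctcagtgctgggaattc

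The FBXL14 window held the E-box CAAGTG, and the other two held none. RefSeq listed 55 such windows for 42 of the 53 genes, from a table of build GRCh38.p14. CANNTG, which reads as CANNTG on both strands, was in 23 of the 55 windows (41.8%) and in 61.8% of all 35116 windows of the table. The form CATCTG, counted on both strands and contained in CANNTG, was in 3 of the 55 (5.45%) and in 12.2% of all windows. These are matches of letters, and binding was not measured here.

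Over the whole list, RNA of the 12p genes was higher in Control than in sgTWIST1 in both settings. The median log2(FC) of Control relative to sgTWIST1 over the 48 genes was 0.84 in cells (quartiles 0.60 and 1.06) and 0.91 in tumors (quartiles 0.66 and 1.11), or 1.79-fold and 1.88-fold. In bulk RNA, fewer cells that express a gene and less RNA of it per cell cannot be told apart. It was 0.00 over all genes tested in cells and 0.00 in tumors. Values were above 0 for 47 of the 48 genes in cells and for 46 in tumors, compared with 50.1% and 50.4% of all genes tested. The comparisons in cells and in tumors share no sample, but the tumors were grown from these cells. Pearson's r between the log2(FC) values of both comparisons over the 48 genes was 0.75. It is a value across genes that lie on 1 chromosome arm and were chosen for their common direction. TSPAN9 was the highest and ETV6 the lowest of the 48 genes in both settings, and r without them was not computed.

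**Figure D1:**
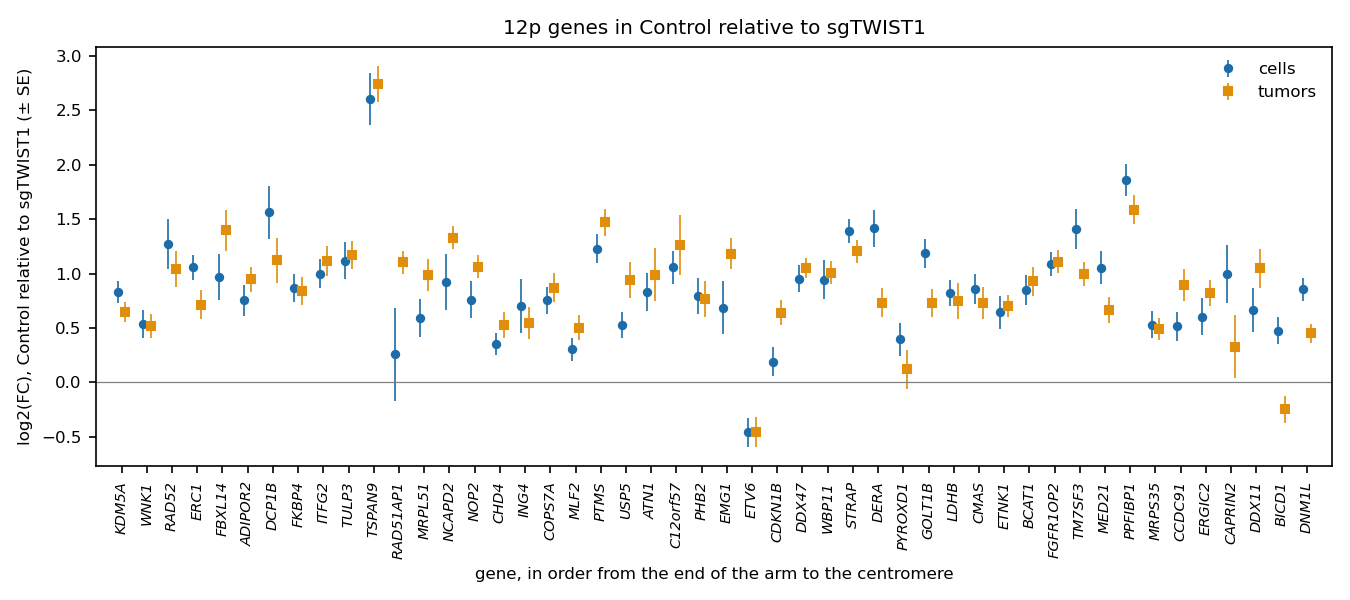
Log2(FC) of Control relative to sgTWIST1 (y axis, points with SE bars) for the 48 genes of the list that passed the filter, in order from the end of 12p to the centromere (x axis), in cells (circles, 3 clones per group) and tumors (squares, 4 per group). TSPAN9 and PPFIBP1 stand highest, ETV6 is below 0 in both, and BICD1 is below 0 in tumors.

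With an adjusted p value under 0.05 and a log2(FC) of at least 1, the thresholds of the study, the list held 15 of 48 genes in Control cells and 18 in Control tumors, counts that repeat the contrast the list was chosen on and are no test of it. The same thresholds were passed upwards by 8.28% of all genes in cells and 6.81% in tumors. No gene of the list was past them in the other direction. All Control clones were above all sgTWIST1 clones for 44 of the 48 genes, a pattern found upwards in 27.1% of all genes, and 1 gene, ETV6, had all Control clones below, as did 26.1% of all genes. In tumors the corresponding numbers were 43 upwards (21.8% of all genes) and 1 downwards, again ETV6 (22.5% of all genes). Since the list was chosen on this contrast, these counts describe the choice.

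A relative level was computed for each sample, as the median over the 48 genes of log2 CPM minus the mean of the 4 groups, relative to the same median over all genes. Control clones were at 0.52, 0.35 and 0.50 and sgTWIST1 clones at −0.45, −0.49 and −0.41. Control tumors were at 0.48, 0.38, 0.42 and 0.51 and sgTWIST1 tumors at −0.42, −0.48, −0.53 and −0.43. The genotypes did not overlap, and cells and tumors of 1 genotype lay in the same range. Control clone 2 was the lowest Control sample. It was the lowest of the 3 Control clones for 28 of the 48 genes, and the median log2(FC) in cells was 0.87 without it.

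**Figure D2:**
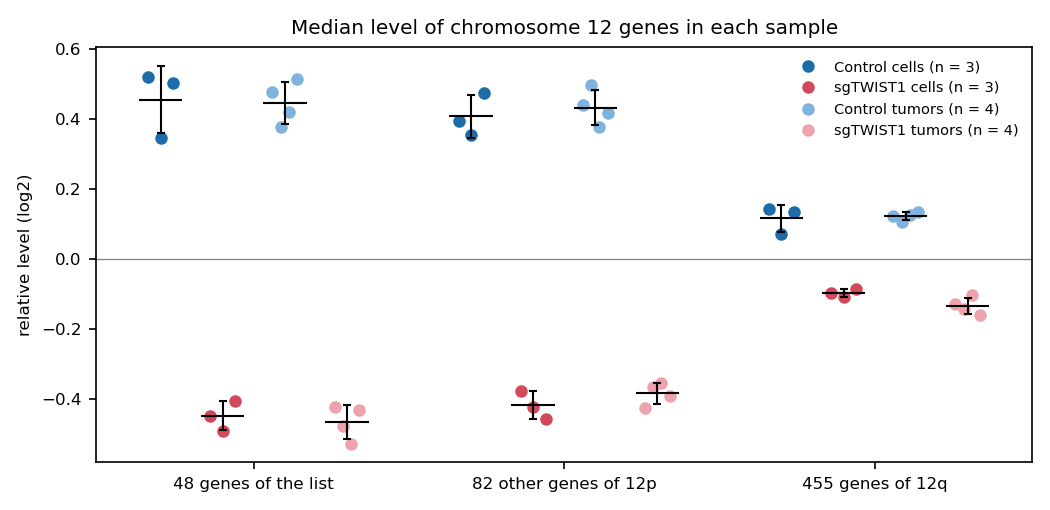
Relative level (y axis, log2 scale) in each clone or tumor (points) with mean and SD (bars) of the 4 groups, for the 48 genes of the list, the 82 other genes of 12p and the 455 genes of 12q that passed the filter (x axis). Every Control sample lies above every sgTWIST1 sample in each of the 3 gene sets, by less in 12q.

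Of the 48 genes, 38 to 46 were above their own mean in any Control sample and 2 to 7 in any sgTWIST1 sample. The batches of a clone gave nearly the same relative level, for instance 0.53 and 0.51 in Control clone 1 and 0.33 and 0.31 in Control clone 2.

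The 82 other genes of 12p had a median log2(FC) of 0.88 in cells and 0.87 in tumors. Of them 73 were above 0 in cells and 70 in tumors, and past both thresholds 32 and 31 were higher and 4 and 6 lower in Control. Over all genes 8.28% and 6.81% were higher and 6.25% and 7.47% lower past them. The region was chosen for being higher in Control as a whole, so the values of its other genes also describe that choice. On the long arm of the same chromosome the median of 455 genes was 0.26 in cells and 0.28 in tumors. Within 12p, 4 stretches of 22 to 39 genes each had medians of 0.80 to 0.96 in cells and 0.77 to 0.96 in tumors, so no stretch of the arm carried the median alone. The other genes of 12p spread more widely than the genes of the list, with lower and upper quartiles of 0.47 and 1.48 in cells.

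Some other genes of the arm differed far more than the median. LMO3, a LIM domain cofactor of transcription, was at 31.8 ± 8.92 CPM (SD, n = 3) in Control clones and 0.548 ± 0.136 in sgTWIST1 clones. ARHGDIB was at 4.73 ± 0.652 CPM in Control clones and 0.155 ± 0.0542 in sgTWIST1 clones. The latter value is near the floor of 3 counts given below, so the size of its difference is uncertain. H2AFJ, a histone H2A variant, was at 41.6 ± 3.67 CPM and 2.64 ± 0.94 in the same groups. At the other end stood TNFRSF1A, a TNF receptor, at 3.11 ± 1.4 CPM in Control clones and 23.2 ± 6.17 in sgTWIST1 clones. BHLHE41, a helix-loop-helix repressor, was at 3.24 ± 1.4 CPM in Control clones and 6.44 ± 1.47 in sgTWIST1 clones. IQSEC3, an exchange factor for ARF GTPases, had a log2(FC) of −1.79 in cells and −2.22 in tumors. The arm therefore also held genes with several times more RNA in sgTWIST1.

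**Figure D3:**
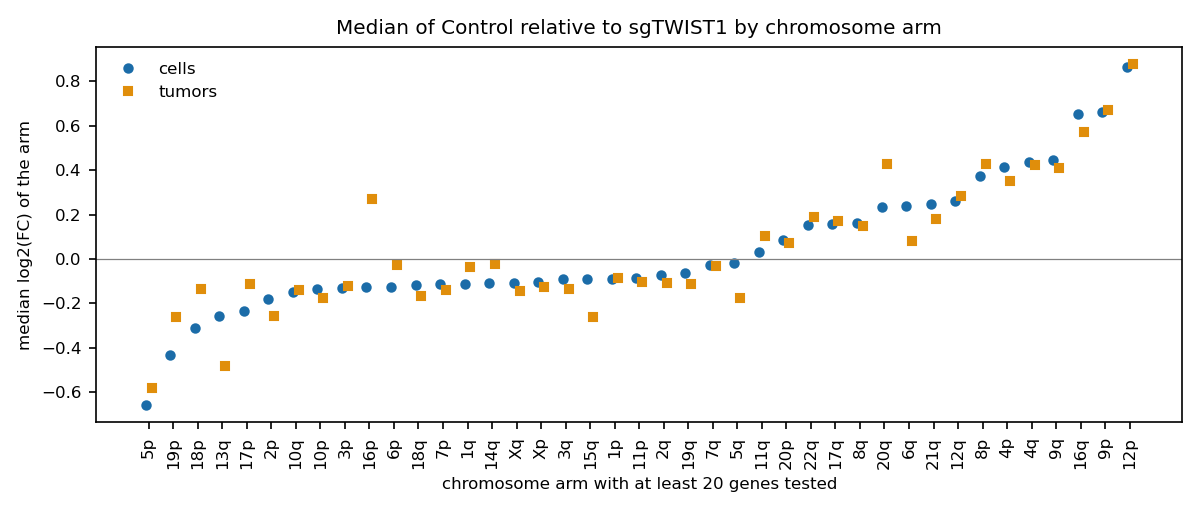
Median log2(FC) of Control relative to sgTWIST1 (y axis) over the genes of each of 41 chromosome arms with at least 20 genes tested (x axis), in cells (circles) and tumors (squares), ordered by the value in cells. Arm 12p has the highest median in both, at 0.86 and 0.88, and 5p the lowest.

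Among 41 chromosome arms with at least 20 genes tested, 12p had the highest median in cells (0.86) and in tumors (0.88) over its 130 genes. The next arms were 9p, at 0.66 and 0.67, and 16q, at 0.65 and 0.57. Arm 5p was lowest, at −0.66 in cells and −0.58 in tumors. These ranks are descriptions, and differences between arms were not tested. Arm 12p was chosen as a region higher in Control as a whole, so its rank repeats that choice.

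Membrane traffic and cell shape held the largest values of the list. All 10 genes of this group were above 0 in cells and 9 in tumors, with medians of 1.07 and 0.86. TSPAN9 (ENSG00000011105, GRCh37 chromosome 12, 3186521 to 3395730), a tetraspanin of the plasma membrane, was at 69.1, 98.8 and 78.3 CPM in Control clones and at 9.93, 13.2 and 17.5 in sgTWIST1 clones. In tumors it was at 215, 172, 224 and 187 CPM in Control and 21.7, 35.2, 29.6 and 34 in sgTWIST1. Every Control sample was several times above every sgTWIST1 sample of the same setting, with a log2(FC) of 2.61 (SE 0.24) in cells and 2.74 (SE 0.16) in tumors. PPFIBP1, a liprin that acts at cell adhesions, was at 140, 107 and 132 CPM in Control clones and 33.2, 32.2 and 38.8 in sgTWIST1 clones. Its tumors were at 99, 83.1, 85.8 and 98.8 CPM in Control and 28.9, 39.1, 29.2 and 26.3 in sgTWIST1. Control and sgTWIST1 lay apart in both settings, and the log2(FC) was 1.86 (SE 0.15) in cells and 1.59 (SE 0.14) in tumors.

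DNM1L encodes the dynamin-related GTPase that divides mitochondria. It was at 316, 278 and 290 CPM in Control clones and at 166, 166 and 157 in sgTWIST1 clones, and in tumors at 234, 246, 231 and 252 in Control and 182, 189, 167 and 173 in sgTWIST1. Control lay above sgTWIST1 in both settings, with a wider gap in cells (log2(FC) 0.86, SE 0.10) than in tumors (0.45, SE 0.09). BICD1, an adaptor of the dynein motor, was at 45, 54.8 and 47.4 CPM in Control clones and 37.4, 33 and 35.4 in sgTWIST1 clones. In tumors it was at 125, 108, 102 and 99.6 CPM in Control and 123, 152, 140 and 107 in sgTWIST1. Here the groups overlapped in tumors, and the log2(FC) was 0.48 (SE 0.12) in cells and −0.25 (SE 0.13) in tumors. ERC1, TULP3, GOLT1B, FGFR1OP2, CCDC91 and ERGIC2 lay between 0.52 and 1.19 in cells and between 0.72 and 1.17 in tumors.

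Chromatin and transcription genes included ETV6, the gene with the opposite direction. Of 8 genes, 7 were above 0 in both settings, with medians of 0.81 and 0.66. PTMS, which encodes the acidic nuclear protein parathymosin, was at 158, 203 and 178 CPM in Control clones and 71.4, 83.3 and 74.9 in sgTWIST1 clones. In tumors it was at 203, 212, 188 and 183 CPM in Control and 70.3, 85.2, 59.3 and 72 in sgTWIST1, and Control lay above sgTWIST1 in both settings. The log2(FC) of PTMS was 1.23 (SE 0.13) in cells and 1.47 (SE 0.12) in tumors. PTMS overlaps MLF2 on the other strand, and whether reads were counted by strand is not given in the sources used here, so reads of the overlap are uncertain. The same holds for other genes given here that overlap a gene on the opposite strand. These are KDM5A with CCDC77, FBXL14 with WNT5B, DCP1B with CACNA1C, CDKN1B with GPR19, PYROXD1 with RECQL and DNM1L with YARS2. They also include ITFG2 with NRIP2 and FOXM1, EMG1 with LPCAT3, CMAS with ST8SIA1 and ERGIC2 with FAR2.

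ETV6 (ENSG00000139083, chromosome 12, 11802608 to 12048311), an ETS family repressor, was at 21.5, 25.2 and 24.4 CPM in Control clones and 35.5, 28.9 and 33.5 in sgTWIST1 clones. In tumors it was at 25.3, 23, 24.1 and 27 CPM in Control and 32.6, 42.8, 34.3 and 28.5 in sgTWIST1. All Control samples were below all sgTWIST1 samples, with a log2(FC) of −0.46 in both cells (SE 0.14) and tumors (SE 0.14). KDM5A, a histone H3 lysine demethylase, was at 176, 164 and 169 CPM in Control clones and 91.6, 92.5 and 102 in sgTWIST1 clones. Its tumors were at 210, 171, 199 and 206 CPM in Control and 131, 123, 134 and 120 in sgTWIST1. The ranges were separate, and KDM5A had a log2(FC) of 0.83 (SE 0.10) in cells and 0.65 (SE 0.09) in tumors.

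CHD4, the remodelling ATPase of the NuRD complex, was at 762, 730 and 769 CPM in Control clones and 579, 594 and 596 in sgTWIST1 clones, a log2(FC) of 0.35 (SE 0.10). Tumors had 756, 633, 783 and 796 CPM in Control and 569, 517, 463 and 530 in sgTWIST1, a log2(FC) of 0.53 (SE 0.12). Control and sgTWIST1 lay apart in CHD4 although the difference was small. ATN1, a transcriptional corepressor, was at 29.3, 35.8 and 26.1 CPM in Control clones and 19.4, 14.5 and 17.3 in sgTWIST1 clones. ATN1 in tumors was at 104, 74.3, 79.3 and 62.8 CPM in Control and at 29, 40.2, 63.9 and 30.8 in sgTWIST1, where sgTWIST1 tumor 3 lay just above the lowest Control tumor. PHB2, MED21 and ING4 had values of 0.71 to 1.06 in cells and 0.55 to 0.77 in tumors.

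The 4 DNA repair and chromosome genes tested had a median log2(FC) of 0.79 in cells (range 0.26 to 1.27) and 1.08 in tumors. Control lay above sgTWIST1 without overlap for 3 of them in cells and for 4 in tumors, beside 27.1% and 21.8% of all genes. These counts repeat the contrast the list was chosen on. RAD52, which acts in homologous recombination, was at 19.2, 30.2 and 22 CPM in Control clones and 9.45, 8.33 and 11.9 in sgTWIST1 clones. In tumors RAD52 was at 22.6, 22, 19.9 and 17.8 CPM in Control and 8.77, 8.65, 12.6 and 10.5 in sgTWIST1. Control and sgTWIST1 did not overlap in either setting (log2(FC) 1.27, SE 0.23, and 1.04, SE 0.17). NCAPD2, a condensin subunit needed to compact mitotic chromosomes, was at 448, 242 and 511 CPM in Control clones and 207, 201 and 226 in sgTWIST1 clones. Its tumors were at 487, 413, 507 and 537 CPM in Control and 196, 190, 200 and 195 in sgTWIST1. Control clone 2 came close to the sgTWIST1 clones, and the tumors were widely apart (log2(FC) 0.92, SE 0.26, and 1.33, SE 0.10).

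DDX11, a DNA helicase, had log2(FC) values of 0.66 in cells and 1.05 in tumors. Near-identical copies of DDX11 exist elsewhere in the genome, so its reads are uncertain.

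The group named cell cycle held 2 tested genes, FBXL14 and CDKN1B, and was less even. The groups by role were drawn up from general knowledge, and the place of FBXL14 in this one is uncertain. FBXL14, the substrate receptor of a ubiquitin ligase, was at 15.7, 17.1 and 11.5 CPM in Control clones and 7.88, 6.69 and 8.07 in sgTWIST1 clones. FBXL14 was at 14.2, 16, 20.9 and 15.9 CPM in Control tumors and 6.51, 6.01, 5.35 and 7.75 in sgTWIST1 tumors, with Control above sgTWIST1 in both settings (log2(FC) 0.97, SE 0.21, and 1.40, SE 0.19). CDKN1B, the cyclin-dependent kinase inhibitor p27, was at 95.8, 73.6 and 80.6 CPM in Control clones and 74.9, 77.3 and 66.8 in sgTWIST1 clones, which overlapped (log2(FC) 0.19, SE 0.13). In tumors CDKN1B was at 117, 115, 111 and 111 CPM in Control and 77.4, 83.5, 58.9 and 74.6 in sgTWIST1, which did not (log2(FC) 0.64, SE 0.11). CCND2, a D-type cyclin, was low and did not pass the filter. It was at 1.22, 1.28 and 2.02 CPM in Control clones (36 to 46 counts) and 0.265, 0.634 and 0.542 in sgTWIST1 clones (10 to 22 counts). These ranges did not overlap. In tumors CCND2 ranged from 0.0312 to 6.18 CPM in Control and from 0.0362 to 2.46 in sgTWIST1, which overlapped. The lowest tumor of each group had 1 count, and in Control this was tumor 3, the deepest sample (49990985 human counts). Given this spread between tumors, no difference could be told there.

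**Figure D4:**
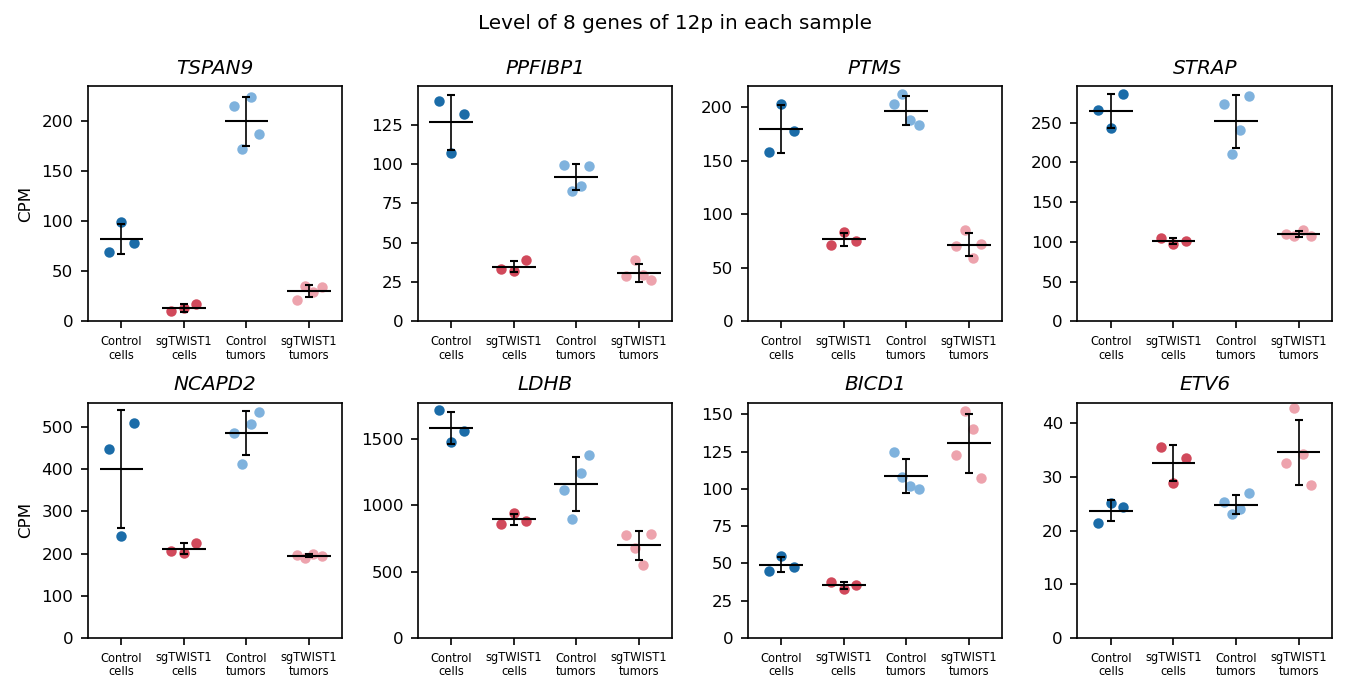
CPM (y axis, from 0, a separate scale per panel) of 8 genes of 12p in each clone or tumor (points) with the mean and SD of each group (bars). In 6 panels every Control sample lies above the sgTWIST1 samples of the same setting, BICD1 overlaps in tumors, and ETV6 is lower in Control.

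Genes of RNA processing, the ribosome and mitochondrial translation were above 0 in all 9 cases in both settings, with medians of 0.95 in cells and 1.05 in tumors. DCP1B, a cofactor of mRNA decapping, was at 12.7, 22.3 and 17 CPM in Control clones and 5.63, 5.97 and 5.96 in sgTWIST1 clones. In tumors DCP1B was at 15.6, 16.1, 11.6 and 13.4 CPM in Control and 6.92, 6.75, 7.93 and 4.82 in sgTWIST1. The sgTWIST1 values were all below 8 CPM and the Control values all above 11 (log2(FC) 1.56, SE 0.24, and 1.12, SE 0.20). STRAP, a WD repeat protein that takes part in the assembly of splicing particles, was at 266, 243 and 286 CPM in Control clones and 105, 97.3 and 101 in sgTWIST1 clones. Control tumors were at 273, 210, 241 and 283 CPM and sgTWIST1 tumors at 110, 108, 115 and 107. STRAP thus had nearly the same levels in cells and tumors of a genotype (log2(FC) 1.39, SE 0.11, and 1.21, SE 0.11). NOP2, EMG1, DDX47, WBP11, CAPRIN2, MRPL51 and MRPS35 had values of 0.53 to 1.00 in cells and 0.33 to 1.18 in tumors. MRPL51 and NCAPD2 overlap on opposite strands, with the same uncertainty as PTMS.

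Metabolic genes were above 0 in all 7 cases, with medians of 0.82 and 0.73. LDHB, the lactate dehydrogenase subunit that favours the use of lactate, was at 1716, 1474 and 1557 CPM in Control clones and 862, 940 and 881 in sgTWIST1 clones. In tumors LDHB was at 1118, 898, 1242 and 1381 CPM in Control and 779, 675, 549 and 786 in sgTWIST1. Control and sgTWIST1 lay apart (log2(FC) 0.82, SE 0.12, and 0.75, SE 0.17). Per length it had the highest level of the list in Control tumors, at 389 ± 68.7 RPKM (SD, n = 4), above 99.4% of the genes tested, while CAPRIN2 had the lowest, at 2.62 ± 0.985 RPKM.

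BCAT1, the cytosolic aminotransferase of branched-chain amino acids, was at 1137, 960 and 1193 CPM in Control clones and 575, 663 and 588 in sgTWIST1 clones, with tumors at 1135, 977, 937 and 1145 and at 598, 620, 482 and 530. Both gaps were wide (log2(FC) 0.85, SE 0.13, and 0.93, SE 0.13). DERA, an aldolase that breaks down deoxyribose phosphate, was at 50.1, 35.1 and 49.7 CPM in Control clones and 15.7, 17 and 17.8 in sgTWIST1 clones. Its tumors were closer together, at 27.2, 27.7, 34.9 and 34.3 CPM in Control and 21, 18.2, 16.3 and 20 in sgTWIST1 (log2(FC) 1.42, SE 0.17, in cells and 0.73, SE 0.14, in tumors). PYROXD1, an oxidoreductase, was at 17.4, 21.7 and 19.5 CPM in Control clones and 15, 15.1 and 14.4 in sgTWIST1 clones. Tumors of both genotypes overlapped for PYROXD1, from 14.5 to 19.7 CPM and from 12.7 to 19.5, with a log2(FC) of 0.12 (SE 0.18). ADIPOR2, CMAS and ETNK1 had values of 0.65 to 0.86 in cells and 0.70 to 0.95 in tumors.

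Of the 3 genes of protein folding and turnover, FKBP4, a cochaperone of HSP90, was at 349, 282 and 346 CPM in Control clones and 192, 166 and 177 in sgTWIST1 clones. It was at 274, 221, 266 and 323 CPM in Control tumors and 156, 142, 137 and 178 in sgTWIST1 tumors, and in both settings Control lay above sgTWIST1 (log2(FC) 0.87, SE 0.13, and 0.84, SE 0.13). COPS7A, a subunit of the COP9 signalosome, was at 86.5, 88 and 91.5 CPM in Control clones and 59.9, 46.4 and 51.2 in sgTWIST1 clones. In tumors COPS7A was at 46.2, 41.9, 49.6 and 43.2 CPM in Control and 24.6, 21.5, 22.2 and 31.6 in sgTWIST1. Its levels were higher in Control in both settings and higher in cells than in tumors of either genotype (log2(FC) of Control relative to sgTWIST1 0.76, SE 0.12, and 0.87, SE 0.14). The third gene, USP5, a deubiquitinase, had values of 0.53 in cells and 0.94 in tumors.

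Signalling and other genes were above 0 in all 5 cases, with medians of 1.00 in both settings. TM7SF3, a membrane protein with 7 membrane passes, was at 123, 82.1 and 122 CPM in Control clones and 42, 36.4 and 44.5 in sgTWIST1 clones. Tumors were at 68.9, 65.9, 75.5 and 82.1 CPM in Control and 36.1, 42.3, 33.8 and 36 in sgTWIST1, again apart (log2(FC) 1.41, SE 0.18, and 1.00, SE 0.11). C12orf57 was at 72.9, 58.7 and 51.7 CPM in Control clones and 28.4, 31.6 and 28.1 in sgTWIST1 clones, with tumors at 64.6, 48.6, 106 and 81.9 and at 28.7, 28.2, 22 and 47.7. The lowest Control tumor was just above the highest sgTWIST1 tumor (log2(FC) 1.06, SE 0.15, in cells and 1.26, SE 0.27, in tumors). WNK1, ITFG2 and MLF2 had values of 0.30 to 1.00 in cells and 0.50 to 1.12 in tumors.

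The 5 genes that did not pass the filter were NINJ2, TEAD4, PARP11, CCND2 and PTPN6. PARP11, a mono-ADP-ribosyltransferase, had 107 to 134 counts in Control clones and 4 to 45 in sgTWIST1 clones, but 216 to 386 and 173 to 287 in the tumors, whose CPM values overlapped. TEAD4, a partner of the YAP coactivators, had 48 to 75 counts in Control tumors and 1 to 18 in sgTWIST1 tumors, while its CPM values overlapped in cells. NINJ2, an adhesion protein, had 30 to 77 counts in Control clones and 5 to 11 in sgTWIST1 clones. PTPN6, a phosphatase of blood cells, had 6 to 77 counts in any tumor and overlapped there.

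The log2(FC) of Control relative to sgTWIST1 was set against other properties of the 48 genes. Pearson's r of the log2(FC) with the log2 mean CPM was −0.09 in cells and 0.01 in tumors. With the log2 exon length it was −0.08 and −0.22, and with the position along the arm −0.04 and −0.30. Along the arm the genes of the list had medians in tumors of 1.07, 0.99, 0.73 and 0.82 in the 4 stretches named above, and in cells of 0.98, 0.76, 0.85 and 0.86. These are descriptions over genes that share samples and chromosome arm.

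Growth as a tumor against culture was not used to choose the list and was tested in each genotype. Per the labels, tumors and cells also differed in the kit for RNA extraction and in the amount of input RNA, which cannot be told apart from growth as a tumor. Over the list, the median log2(FC) of tumors relative to cells was −0.05 in Control (22 of 48 genes above 0) and 0.00 in sgTWIST1 (24 of 48 above 0). Over all genes tested the medians were −0.01 and 0.02. Past an adjusted p value of 0.05 and a log2(FC) of at least 1, 3 of the 48 genes were higher in Control tumors and 0 lower, beside 5.66% and 6.13% of all genes (DESeq2 gave the same counts). At the adjusted p value alone 8 were higher and 8 lower, beside 18.3% and 19.4%, and at an unadjusted p under 0.05 there were 12 higher and 9 lower, beside 23.1% and 23.7%. In sgTWIST1 3 were higher and 1 lower past both thresholds, beside 8.01% and 4.66%. At the adjusted p value alone 8 were higher and 5 lower, beside 22.7% and 17.8%.

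The 3 genes that rose past both thresholds were ATN1, TSPAN9 and BICD1 in either genotype. In sgTWIST1 the fold of ATN1 rested on sgTWIST1 tumor 3 (log2(FC) 0.96 without it) and that of TSPAN9 on sgTWIST1 clone 1 (0.98 without it). ATN1 rose by a log2(FC) of 1.40 (SE 0.26) in Control and 1.26 (SE 0.26) in sgTWIST1 (adjusted p = 0.000837 and 0.00162, edgeR), with every tumor of a genotype above its clones. TSPAN9 rose by 1.28 (SE 0.20) and 1.16 (SE 0.21), with adjusted p = 0.000308 and 0.000657 by edgeR, also in every tumor. BICD1 rose by 1.15 (SE 0.13) in Control and 1.89 (SE 0.14) in sgTWIST1, with adjusted p = 2.59e-05 and 5.68e-07 by edgeR. COPS7A was the gene past both thresholds that fell in sgTWIST1, by 1.07 on the log2 scale with SE 0.13 and adjusted p = 4.12e-05 by edgeR. In Control its log2(FC) was −0.97 with SE 0.13 and adjusted p = 9.65e-05 by edgeR, just short of the fold threshold. The call in sgTWIST1 rested on sgTWIST1 clone 1, without which the value was −0.96, and in Control the value was −1.02 without Control tumor 3.

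Smaller changes ran in both directions. WNK1, a kinase of ion transport, rose by 0.67 (SE 0.12) in Control and 0.70 (SE 0.12) in sgTWIST1 (adjusted p = 0.000914 and 0.000555, edgeR). NOP2, a methyltransferase of ribosomal RNA, was at 116, 87 and 104 CPM in Control clones and 69.6, 75, 73.1 and 72.9 in Control tumors, and at 71.8, 50.8 and 58.4 in sgTWIST1 clones and 32.7, 30.4, 39.7 and 38 in sgTWIST1 tumors. Its tumors lay below its clones in both genotypes, and NOP2 fell, with −0.49 (SE 0.14) and −0.78 (SE 0.14), and adjusted p = 0.0104 and 0.000518 by edgeR. MLF2, a nuclear protein of uncertain function, was at 118, 126 and 108 CPM in Control clones and 82.6, 83.6, 102 and 92 in Control tumors, and at 95.1, 98.2 and 92.2 in sgTWIST1 clones and 60.7, 55.8, 67.7 and 73.1 in sgTWIST1 tumors. MLF2 also fell, with −0.38 and −0.57 (adjusted p = 0.0148 and 0.00124, edgeR). LDHB fell by 0.45 on the log2 scale in Control (adjusted p = 0.0359, edgeR) and had −0.36 in sgTWIST1 (adjusted p = 0.0814, edgeR). TM7SF3 and DERA fell in Control, with −0.58 and −0.53 (adjusted p = 0.00608 and 0.0125, edgeR), and had −0.14 and 0.17 in sgTWIST1 (adjusted p = 0.447 and 0.405). The human counts of tumors include reads that also match the mouse, whose part in these values was not tested.

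**Figure D5:**
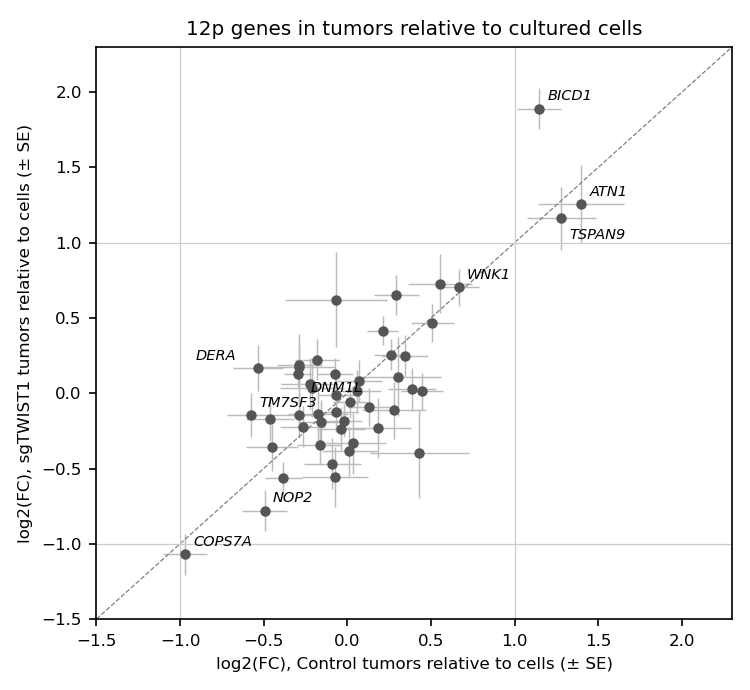
Log2(FC) of tumors relative to cells in Control (x axis) and in sgTWIST1 (y axis) for the 48 genes of the list (points with SE bars), with grey lines at 1 and −1 and a dashed line where both are equal. Most genes lie near 0, ATN1, TSPAN9 and BICD1 are above 1 in both genotypes, and BICD1 lies farthest above the dashed line among the 3.

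The difference between the genotypes in this change was tested as an interaction over all genes. It equals the difference between the log2(FC) of Control relative to sgTWIST1 in tumors and in cells, so it draws on the values the list was chosen on. Past an adjusted p value of 0.05 and an absolute difference of 1, 0 of the 48 genes were called in either direction by edgeR and by DESeq2, beside 2.72% of all genes higher and 5.34% lower. At the adjusted p value alone 0 were higher and 3 lower, beside 4.35% and 8.55%, and 6 of the 48 had an unadjusted p under 0.05, beside 29% of all genes. The 3 genes were BICD1, with −0.74 (SE 0.18, adjusted p = 0.0162, edgeR), DERA, with −0.70 (SE 0.22, adjusted p = 0.0464, edgeR), and DNM1L, with −0.42 (SE 0.12, adjusted p = 0.039, edgeR). Of the 14 fits that left out 1 clone or tumor, 11 lost the call of DERA (adjusted p up to 0.121, edgeR) and 10 that of DNM1L (up to 0.0959, edgeR), and 0 lost that of BICD1 (up to 0.0478, edgeR). Without Control clone 1, 1 further gene of the list passed both thresholds, higher in direction. In DERA and DNM1L the gap between Control and sgTWIST1 was smaller in tumors than in cells, and in BICD1 its sign was opposite.

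Murine genes of the same symbol gave a measure in the stroma of the same tumors that the choice of the list had not used. The murine table held 52 of the 53 symbols, and 51 passed its filter. The threshold of the study for murine genes was an adjusted p value below 0.05 and an absolute log2 change of 0.5 or more. With it, edgeR's quasi-likelihood test called 0 of the 51, beside 0.0% of all 12758 murine genes. Since it called no murine gene at all, this count cannot set the 51 apart from the rest. The paper, which used DESeq2, reports stromal genes that differed between these tumors at that threshold. At an unadjusted p under 0.05 by edgeR there were 3 of the 51, beside 5.15% of all murine genes. Here DESeq2 called 1 of the 51 and 54 of all. The median log2(FC) of Control relative to sgTWIST1 over the 51 was −0.02 (quartiles −0.17 and 0.14), and 25 of them were above 0. Over all murine genes the median was 0.00 and 50.5% were above 0.

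Mouse Ccnd2, the gene called by DESeq2, was at 113, 111, 102 and 91.5 CPM in the stroma of Control tumors and at 250, 242, 160 and 140 in that of sgTWIST1 tumors. All sgTWIST1 values were higher (log2(FC) −0.93, SE 0.22, adjusted p = 0.519, edgeR). Etv6 was at 45.6, 47.4, 51.3 and 56.9 CPM in Control and 69.2, 77.7, 59.6 and 63.8 in sgTWIST1 (log2(FC) −0.41, SE 0.15, adjusted p = 0.876, edgeR). Ldhb overlapped between the groups, with 9.47 to 28.8 CPM in Control and 2.92 to 12.3 in sgTWIST1 (log2(FC) 1.47, SE 0.45, adjusted p = 0.639, edgeR). Tspan9, the counterpart of the human gene of largest log2(FC), was at 141, 82.9, 96.5 and 78.1 CPM in Control and 184, 195, 94.2 and 128 in sgTWIST1, which overlapped. Those 4 murine genes are named because they had the lowest unadjusted p values or are counterparts of genes described above.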

How the data were processed

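Human RNA-seq was analysed in 3 Control clones, 3 sgTWIST1 clones, 4 Control tumors and 4 sgTWIST1 tumors of SK-N-Be2c. Per the labels, reads had been aligned with STAR 2.5.2b to hg19 and mm10, and the authors deposited expected counts per gene from RSEM 1.3.0. DESeq2 1.26.0 is also named there. Reads matching both organisms stay in the human table. Strandedness is not given in the sources used here.

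Expected counts were rounded, and the batches named in the sample titles were summed for each clone. For sgTWIST1 clone 3 only batch 1 was present. Protein-coding genes (GENCODE v44lift37) with log2 RPKM above 1 in at least 1 of 19 columns were kept. edgeR 4.0.16 (R 4.3.3) fitted quasi-likelihood models with TMM factors, with Benjamini-Hochberg adjustment over all genes. DESeq2 1.42.0 was an alternative. Labels do not say whether tumors came from separate clones, so p-values measure the spread between these samples. Given with every sample were, in each role group, the 2 members of highest mean log2(FC) of Control relative to sgTWIST1, the 3 members of lowest mean, and KDM5A, CHD4, CCND2, CDKN1B, ETV6, LDHB and DNM1L. For tumors against cells, the 3 highest and 3 lowest members in each genotype were named. Of the rest of 12p, the 3 highest and 3 lowest genes were given by means or log2(FC). Further members were named after their values were seen. The members, lists and rule were chosen with earlier results of these data known. The fit was run on simulated data with a true log2 change of 2 in genes above a limit of mean counts. It recovered 194 of 200 changed genes for Control tumors against cells and 192 of 200 for sgTWIST1. For the interaction it recovered 180 of 200 and for murine stroma 168 of 200. Genes called without a true change numbered 5, 3, 7 and 11 in the same order. Smaller changes and genes of low counts were not simulated, so their recovery is not known. A floor of 3 counts was 0.0600 to 0.1400 CPM when scaled to all human counts of a sample, without TMM normalisation. The CPM values given for genes were scaled over the genes tested, and 3 counts lie higher on that scale. There, 1 count of CCND2 was 0.0312 CPM in Control tumor 3. The floor covers counting error only. The values of 1 member are not reported here.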

Additional observations from a re-analysis of the deposited data

Results flagged for a closer look

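The change from cells to tumors differed between Control and sgTWIST1, by the interaction test of edgeR at an adjusted p value under 0.05, for 3 of the 48 genes of 12p tested, 0 higher and 3 lower. Over all genes 4.35% were higher and 8.55% lower, so the share of the list was not above that of all genes. The difference was −0.742 on the log2 scale for BICD1, −0.701 for DERA and −0.422 for DNM1L. Of 14 fits without 1 sample, 11 lost the call of DERA, 10 that of DNM1L and 0 that of BICD1. The values overlap with those the list was chosen on. Over 56 sets of 4 tumors, each of 1 measure in 1 genotype, no tumor lay far from the others, where chance gives about 5%.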

How the results depend on the processing

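The median log2(FC) of the list kept its sign under every alternative run. In cells it was 0.622 with edgeR's own expression filter on all gene types and 0.672 with no filter, where all genes shifted by −0.22 and −0.167, so that the list relative to all genes stayed at 0.842 and 0.839. Leaving out 1 sample gave 0.816 to 0.868 in cells and 0.834 to 0.919 in tumors. With either of these filters 1 gene instead of 0 was lower in Control tumors than cells, 1 instead of 3 higher in sgTWIST1 tumors and 2 instead of 1 lower. The 3 interaction calls were lost with both. Leaving out 1 sample gave 0 to 1 genes lower in Control tumors, 2 to 3 higher in sgTWIST1 tumors, 0 to 1 lower in sgTWIST1 tumors and 0 to 1 with an interaction past both thresholds. Of the murine counterparts, DESeq2 called 1 and edgeR without a filter 2, instead of 0. The cause of these changes was not tested. Same-numbered clones of Control and sgTWIST1 had r of 0.316, 0.283 and 0.1, above those of differently numbered clones (−0.273 to 0.065). Same-numbered tumors had r of −0.191 to 0.283, within the range of differently numbered tumors (−0.343 to 0.437). Whether samples of the same number belong together was not tested. With the replicate block the medians were 0.84 and 0.915, and 1 gene instead of 0 was lower in Control tumors. The adjusted p values of DERA and DNM1L were then 0.0591 and 0.0642 by edgeR. Low counts limit CCND2, TEAD4, NINJ2 and PTPN6, and CCND2 also spread widely between tumors.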
